A study of Homo sapiens with 24 samples.

Results

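The 9 genes described here, AGO1, AGO2, AGO3, DICER1, DROSHA, DGCR8, TARBP2, TNRC6A and XPO5, encode core proteins of RNA interference. They were chosen by name, by a rule that uses no measured value although earlier results of these data were known, and are 9 of the 27431 gene symbols in the study's 3 genome-wide tables. All 9 were present, through 23 RefSeq accessions. The level of a gene is the sum of FPKM (fragments counted per length of transcript and per size of the library) over its accessions, so levels of different genes can be compared.

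RNA was sequenced from SKBR3, HCC1954 and HCC1569, human breast carcinoma lines, after silencing of TFAP2C, which encodes the transcription factor AP-2gamma. In SKBR3 and in HCC1954, 3 samples given non-targeting siRNA (negative control siRNA#2) were compared with 3 given siRNA against TFAP2C, each left for 72 to 96 h after lipid transfection. In HCC1954, 3 further samples that carry a lentivirally delivered control shRNA were compared with 3 that carry an shRNA against TFAP2C. These were stable clones, and the labels do not say how many clones stand behind each group. The HCC1569 table lists 68 entries and 0 of the 9 genes, so that line is not analysed here. Both arms of every comparison thus hold a small RNA that itself feeds into the RNA interference pathway, and the labels list 0 samples without one. A ratio of knockdown to control therefore cannot show a change that both arms share, and the effect of carrying a silencing RNA cannot be told apart from the state of the line.

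Long primary miRNA transcripts are cut in the nucleus by the Microprocessor, formed by the nuclease DROSHA and its RNA-binding partner DGCR8. The hairpins leave through exportin-5, encoded by XPO5, and are trimmed to duplexes by DICER1, which works with the double-stranded RNA-binding protein TARBP2. One strand is then held by an Argonaute protein, which cleaves a target itself or recruits a GW182 protein such as TNRC6A to repress it. An shRNA, as a hairpin made in the nucleus, uses export and dicing, whereas a transfected siRNA duplex enters close to the Argonaute step.

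The words rose and fell are kept for genes with a q-value under 0.05, in the authors' deposited table, for the standing accession, the 1 whose FPKM, averaged over the 6 groups of the 3 comparisons, was highest. Each FPKM value is the authors' single pooled value for a group, so it has no replicate spread here and the depth behind it is unknown. The labels do not state whether replicates were separate cultures. The deposited p-values may thus reflect technical spread alone. The silenced gene itself fell in all 3 comparisons: TFAP2C was at 157 FPKM in control and 53.9 FPKM in knockdown SKBR3 cells, at 92.4 and 22.0 FPKM in the HCC1954 siRNA pair, and at 81.0 and 3.46 FPKM in the shRNA clones. In a bulk sample, fewer cells of a kind and less RNA per cell cannot be told apart.

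The shRNA groups stood apart from each other well beyond the 9 genes. Of 9 breast epithelial markers tested with shRNA, 2 rose and 7 fell, and their summed level was 3024 FPKM in control and 2104 FPKM in knockdown clones. Over all genes tested, 36.3% rose and 39.2% fell with shRNA, 12.3% and 21.0% in SKBR3, and 2.31% and 0.965% with siRNA in HCC1954. KRT19, a keratin, was listed at a summed 19.9 FPKM in control and 634 FPKM in knockdown clones, and KRT7, another keratin, at 639 and 0.550 FPKM. PECAM1, an endothelial adhesion gene, fell from 11.6 to 0.0180 FPKM. In the HCC1954 siRNA cells only 1 of the 9 epithelial markers was called, KRT19, which fell from 7.51 to 4.01 FPKM. In SKBR3, 3 of 8 tested epithelial markers rose and 1 fell, with a summed 7457 and 7026 FPKM, and CDH1, the E-cadherin gene, was near 0 (0.0894 FPKM in control). PECAM1 also fell with siRNA in HCC1954, from 27.0 to 18.5 FPKM. The summed level of the 4 endothelial markers was 0.169 and 0.164 FPKM in SKBR3, 27.5 and 19.2 FPKM with siRNA in HCC1954, and 12.0 and 0.180 FPKM with shRNA. The summed level of 6 immune markers lay between 4.84 and 38.8 FPKM and that of 5 fibroblast markers between 0.340 and 1.96 FPKM over the 6 groups. The labels name both sets of clones as HCC1954, and whether they are the same line was not tested. Every shRNA ratio below may therefore compare cells that differ in more than TFAP2C, and the silencing of TFAP2C cannot be told apart from such differences.

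The calls among the 9 genes are given for each comparison, and 0 of the 9 were called in all 3. The share of all genes called in all 3 was not counted, and with siRNA in HCC1954 only 3.28% were called. That 0 is thus not a result about the 9 genes. In SKBR3, TNRC6A rose and XPO5 fell, with 6 of 8 tested genes not called. In HCC1954 given siRNA, AGO2 alone of 9 tested genes was called, and it rose. With shRNA in HCC1954, AGO1, AGO2 and DGCR8 rose while DICER1, TNRC6A and XPO5 fell, leaving 2 of 8 tested genes uncalled. Among all genes tested, 33.3% were called in SKBR3, 3.28% with siRNA in HCC1954 and 75.4% with shRNA. The 6 calls of 8 with shRNA, a share of 75%, were thus close to the share over all genes, and so were the 2 of 8 in SKBR3, given the small number.

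The directions can be read against the same background. Over all tested genes 12.3% rose and 21.0% fell in SKBR3, 2.31% rose and 0.965% fell with siRNA in HCC1954, and 36.3% rose and 39.2% fell with shRNA. The median log2 ratio of the 9 summed levels was -0.07 in SKBR3, -0.02 with siRNA in HCC1954 and 0.12 with shRNA, beside -0.09, -0.01 and -0.03 over all genes tested. The 9 include AGO3, which had no completed test in SKBR3 or with shRNA, here and in the sizes that follow. Over the tested ones of the 9 alone, the median was -0.18 in SKBR3 and 0.10 with shRNA. The median absolute log2 ratio of the 9 was 0.29, 0.07 and 0.69, beside 0.27, 0.14 and 0.67. On the standing accession alone the median absolute log2 ratio was 0.26, 0.20 and 0.67, beside 0.30, 0.19 and 0.72 over all genes tested. The sizes for the 9 genes were near those over all genes in SKBR3 and with shRNA, and with siRNA in HCC1954 the order depended on which of these levels was used.

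**Figure D1:**
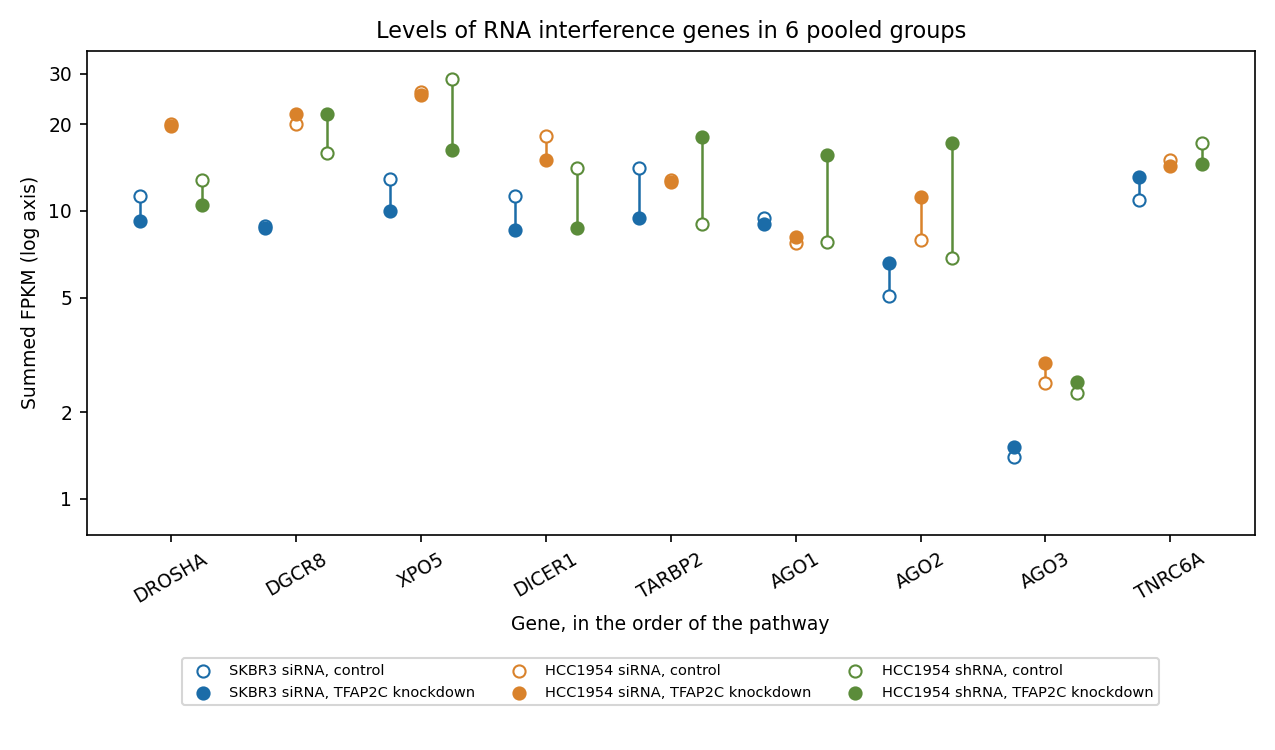
Summed FPKM (log axis) of the 9 genes in the 6 pooled groups, in the order in which their proteins act. Open circles are control groups and filled circles knockdown groups, joined by a line, with colour for the comparison. AGO3 lies lowest in every group, and the longest lines are those of AGO2, AGO1, TARBP2, XPO5 and DICER1 with shRNA.

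DROSHA (chromosome 5, 31400601 to 31532303, minus strand, GRCh37), the nuclease that releases the hairpin from a primary transcript, was called in none of the comparisons. Its summed level was 11.3 FPKM in control and 9.20 FPKM in knockdown SKBR3 cells, 20.1 and 19.7 FPKM with siRNA in HCC1954, and 12.8 and 10.5 FPKM with shRNA. Every knockdown group lay below its control, but by little with siRNA in HCC1954. The q-values of the authors' deposited table for its standing accession were 0.207, 0.818 and 0.0879. With shRNA its accessions went apart, NM_013235 being listed at 7.54 and 4.74 FPKM and NM_001100412 at 5.30 and 5.73 FPKM.

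DGCR8 (chromosome 22, 20067744 to 20099400, plus strand), whose protein recognises the primary transcript, rose with shRNA alone. It was listed at 8.89 and 8.72 FPKM in control and knockdown SKBR3 cells, at 20.1 and 21.6 FPKM with siRNA in HCC1954, and at 15.9 and 21.7 FPKM with shRNA. The HCC1954 groups were all above the SKBR3 groups. The rise belonged to the standing accession NM_022720, at 10.0 FPKM in control and 15.4 FPKM in knockdown clones, a log2 ratio of 0.62 with q = 0.0243 in the authors' deposited table. The other accession, NM_001190326, stood at 5.93 and 6.38 FPKM, with q = 0.817 in the authors' deposited table.

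DGCR8 messenger RNA carries hairpins in its own exons, which the Microprocessor can cut, and these substrates link the pair of genes. Only the mature miRNAs from these hairpins are printed, not the hairpins themselves. The mature miRNAs follow, 5′ to 3′ as RefSeq gives them (GRCh38.p14), with the seed, bases 2 to 8, in capitals, and the 3 seeds all differ.
hsa-miR-3618: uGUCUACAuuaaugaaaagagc
hsa-miR-1306-5p: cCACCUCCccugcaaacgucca
hsa-miR-1306-3p: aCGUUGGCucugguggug
On GRCh37 the MIR3618 gene spans 20073269 to 20073356 of chromosome 22, in an untranslated exon of DGCR8, and MIR1306 spans 20073581 to 20073665, in its coding exon. A TruSeq RNA library is not made for mature miRNAs, and over these spans their hairpins cannot be told apart from the DGCR8 transcript. MIR1306 was listed at 46.8 and 28.2 FPKM with siRNA in HCC1954, with q = 0.937 in the authors' deposited table, and at 0 in the other 4 groups. MIR3618 was listed at 0 in all 6 groups.

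XPO5 (chromosome 6, 43490072 to 43543775, minus strand), the export receptor of hairpin precursors, fell in SKBR3 and with shRNA. Its summed level was 12.9 FPKM in control and 9.96 FPKM in knockdown SKBR3 cells, 25.9 and 25.3 FPKM with siRNA in HCC1954, and 28.7 and 16.3 FPKM with shRNA. The shRNA knockdown clones were the lowest of the HCC1954 groups, still above both SKBR3 groups. For the standing accession NM_020750 the log2 ratios were -0.35, -0.04 and -0.78, with q = 8.36e-03, 0.963 and 1.21e-04 in the authors' deposited table. POLR1C, an RNA polymerase subunit gene on the opposite strand, overlaps the XPO5 gene over 40085 bases on GRCh37, and the sources used here do not say whether counting used strand. POLR1C rose with shRNA, from 21.9 to 33.6 FPKM, in the direction opposite to XPO5, and was listed at 13.1 and 13.3 FPKM in SKBR3 and at 26.4 and 25.4 FPKM with siRNA in HCC1954.

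DICER1 (chromosome 14, 95552565 to 95624347, minus strand), which cuts hairpins and long double-stranded RNA to duplexes, fell with shRNA alone. It was listed at 11.3 and 8.58 FPKM in SKBR3, at 18.2 and 15.0 FPKM with siRNA in HCC1954, and at 14.1 and 8.70 FPKM with shRNA. All 3 knockdown groups lay below their controls. The fall with shRNA rests on the standing accession NM_001291628, at 8.29 and 4.61 FPKM, a log2 ratio of -0.85 with q = 0.0236 in the authors' deposited table. Its other 4 accessions had no completed test there. Of these NM_001195573 was higher in knockdown clones, at 2.03 and 3.08 FPKM. The rest were lower, NM_030621 at 2.72 and 0.666 FPKM, NM_177438 at 0.580 and 0.340 FPKM and NM_001271282 at 0.459 and 0.00143 FPKM. In HCC1954 siRNA cells the standing accession was at 10.6 and 11.2 FPKM, against a lower sum in knockdown cells, so that sum and accession differed in sign. In SKBR3 it was at 6.16 and 4.11 FPKM with q = 0.180 in the authors' deposited table.

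TARBP2 (chromosome 12, 53894705 to 53900215, plus strand), the partner of DICER1, was called in none of the comparisons by its standing accession, but another of its accessions rose with shRNA. Its summed level was 14.1 and 9.45 FPKM in SKBR3, 12.8 and 12.6 FPKM with siRNA in HCC1954, and 9.02 and 18.0 FPKM with shRNA. The control shRNA clones were the lowest of all 6 groups and the knockdown clones the highest. The standing accession NM_004178 stayed uncalled with shRNA, at 5.43 and 5.71 FPKM, whereas NM_134324 rose from 0.651 to 7.87 FPKM with q = 9.71e-03 in the authors' deposited table. That accession was listed at 5.78 and 3.98 FPKM with siRNA in HCC1954, so among the HCC1954 groups the control clones had by far the lowest value. The split of reads between accessions of 1 gene is an estimate of the authors' tool, and its error cannot be had from pooled values.

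**Figure D2:**
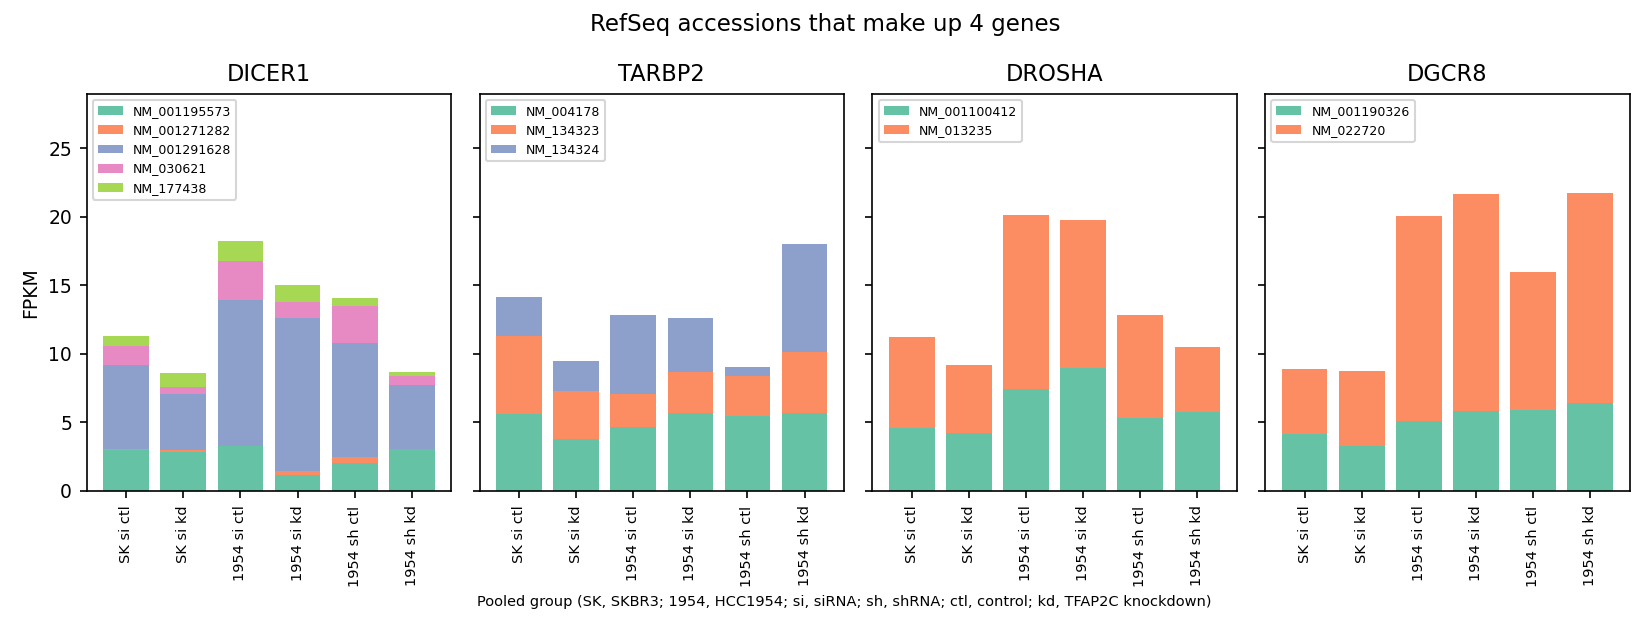
FPKM of each RefSeq accession, stacked, for DICER1, TARBP2, DROSHA and DGCR8 in the 6 pooled groups. NM_134324 makes up little of TARBP2 in the control shRNA clones (0.651 FPKM) and most of the gain in the knockdown clones (7.87 FPKM).

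Of the Argonaute genes, AGO1, AGO2 and AGO3 all had higher summed levels in knockdown than in control HCC1954 groups, but not all were tested or called. AGO2 (chromosome 8, 141530255 to 141645732, minus strand) encodes the slicer, the Argonaute that cuts a perfectly matched target, and it was called in the same direction in both HCC1954 comparisons. Its summed level was 5.08 and 6.62 FPKM in SKBR3, 7.96 and 11.2 FPKM with siRNA in HCC1954, and 6.84 and 17.2 FPKM with shRNA. Each knockdown group lay above its control, and the 3 control groups lay within 5.08 to 7.96 FPKM. Its standing accession NM_012154 was at 6.57 and 11.1 FPKM with siRNA in HCC1954 and at 6.14 and 14.6 FPKM with shRNA, log2 ratios of 0.76 and 1.25 with q = 0.0379 and 1.21e-04 in the authors' deposited table. The other accession, NM_001164623, had no completed test in any comparison. With siRNA in HCC1954 it went the other way, at 1.38 and 0.0875 FPKM, and the log2 ratio of the sum was 0.49. With shRNA it was at 0.697 and 2.61 FPKM. In SKBR3 NM_012154 stood at 4.36 and 4.55 FPKM with q = 0.892 in the authors' deposited table, so the higher SKBR3 sum came from NM_001164623 (0.717 and 2.08 FPKM).

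AGO1 (chromosome 1, 36335409 to 36396133, plus strand), an Argonaute that represses without being the main slicer, rose with shRNA alone. It was at 9.46 and 9.004 FPKM in SKBR3, at 7.73 and 8.09 FPKM with siRNA in HCC1954, and at 7.83 and 15.7 FPKM with shRNA. The other 5 groups lay between 7.73 and 9.46 FPKM, so the knockdown clones stood alone. Both of its accessions rose, NM_001317123 from 4.53 to 8.97 FPKM and NM_001317122 from 3.29 to 6.72 FPKM, with q = 7.87e-03 and 0.0338 in the authors' deposited table. AGO3 (chromosome 1, 36396319 to 36538101, plus strand), which lies next to AGO1 on the same strand, was the lowest of the 9 in every group. It was at 1.40 and 1.52 FPKM in SKBR3, at 2.53 and 2.97 FPKM with siRNA in HCC1954, and at 2.33 and 2.54 FPKM with shRNA. AGO3 had a completed test only with siRNA in HCC1954, with q = 0.937 in the authors' deposited table. AGO1, AGO2, AGO3 and AGO4 are close in sequence, as are TNRC6A, TNRC6B and TNRC6C, so reads shared between relatives could be split between them, and their levels are uncertain to that extent.

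TNRC6A (chromosome 16, 24621530 to 24838953, plus strand), the GW182 protein that joins Argonaute to the deadenylases, was called in opposite directions. It rose in SKBR3, from a summed 10.9 to 13.1 FPKM, and fell with shRNA, from 17.2 to 14.6 FPKM. In the HCC1954 siRNA pair it was listed at 15.0 and 14.4 FPKM. These are small changes, log2 ratios of 0.26, -0.23 and -0.03 for the standing accession NM_001330520, with q = 0.0267, 1.21e-04 and 0.971 in the authors' deposited table. With shRNA, AGO2 and XPO5 share that q of 1.21e-04. It goes with the smallest p of the authors' deposited tests, 5e-05, and so does not rank these genes. TNRC6A had the narrowest range of the 9 over the 6 groups, the highest value being 1.58 times the lowest.

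**Figure D3:**
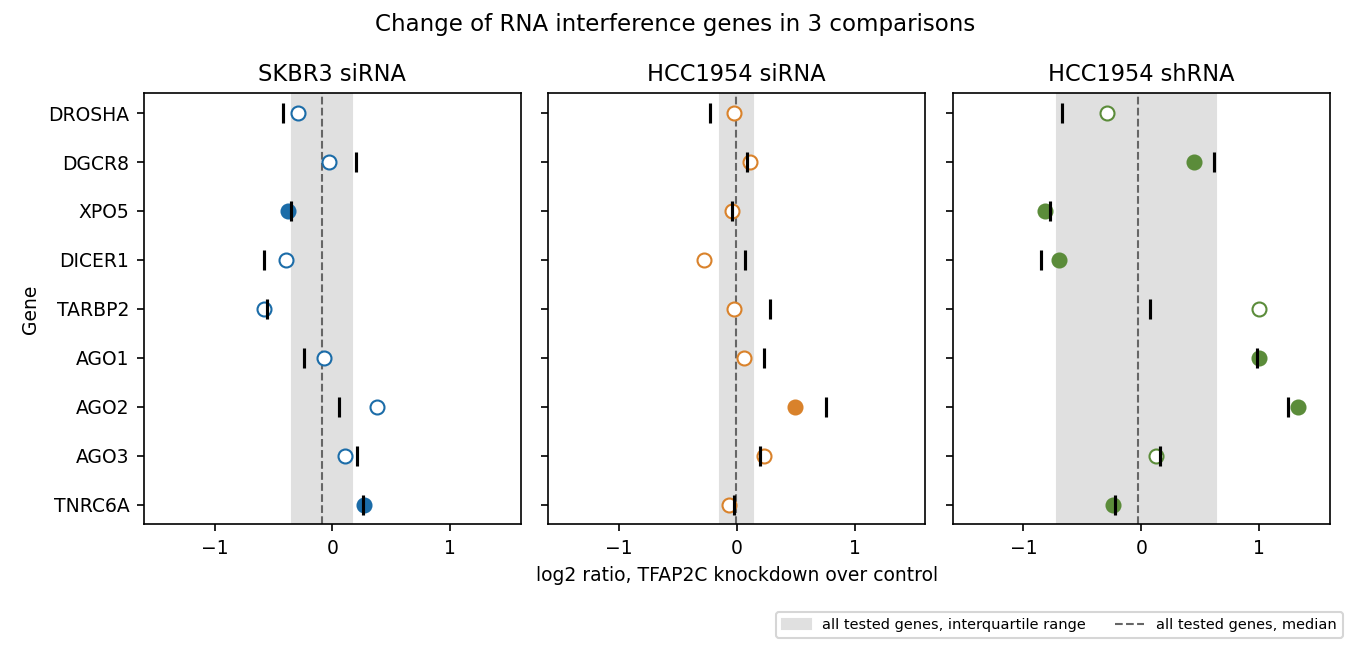
Log2 ratio of knockdown to control for the 9 genes in each comparison. Circles are summed FPKM, filled where the standing accession was called, black ticks are the standing accession alone, the grey band is the interquartile range of all tested genes and the dashed line their median. With shRNA, AGO1, AGO2, TARBP2 and XPO5 lie outside the band, with siRNA in HCC1954 AGO2, AGO3 and DICER1 do, and in SKBR3 AGO2, DICER1, TARBP2, TNRC6A and XPO5 do.

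The standard error that the deposited statistic implies for a log2 ratio differed widely between the called genes. It was 0.18 for the fall of XPO5 and 0.16 for that of TNRC6A with shRNA, and 0.22 and 0.19 for the same genes in SKBR3. For AGO2 it was 0.44 in both HCC1954 comparisons. For DGCR8, DICER1 and AGO1 with shRNA it was 0.75, 1.10 and 1.09, larger than the log2 ratios themselves (0.62, -0.85 and 0.98), although the authors' deposited table gives these genes a q under 0.05. In all, 7 of the 9 calls had a deposited statistic under 1.96 in size, the normal quantile for a p of 0.05, and so rest on the deposited p-values. The other calls, the rise of AGO2 and the fall of XPO5 with shRNA, passed on the statistic too.

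A call in 1 comparison and none in another does not show that they differ, so the difference of log2 ratios of the standing accession was tested for the 8 genes tested in both of each pair, with a z test adjusted by Benjamini-Hochberg over all genes compared. With standard errors from the deposited statistic, 0 of 8 differed between SKBR3 and HCC1954 siRNA, 0 of 8 between siRNA and shRNA in HCC1954, and 0 of 8 between SKBR3 siRNA and HCC1954 shRNA. Over all genes the shares were 0.505%, 13.8% and 26.9%. At an unadjusted p under 0.05 the counts were 0, 1 and 1. For XPO5 the log2 ratio was 0.74 higher with siRNA than with shRNA in HCC1954, with an adjusted p of 0.208. For TNRC6A it was 0.48 ± 0.24 (SE) higher in SKBR3 than with shRNA, with an adjusted p of 0.141.

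The deposited p-values are smaller than the deposited statistics would give under a normal curve, so the test was repeated with standard errors taken from those p-values. The counts became 0, 1 and 3 of 8, beside 12.4%, 49.3% and 60.7% of all genes. The log2 ratio of XPO5 was then lower with shRNA than with siRNA in HCC1954, with an adjusted p of 4.99e-03. The log2 ratios of AGO1 and AGO2 were 1.22 and 1.19 lower in SKBR3 than with shRNA, with an adjusted p of 2.49e-03 and 7.05e-03. That of TNRC6A was 0.48 higher in SKBR3 than with shRNA, with an adjusted p of 5.38e-05. For AGO2, TNRC6A and XPO5 with shRNA, the standard error from p rests on the smallest p of the authors' deposited tests, 5e-05. Both versions rest on a normal approximation to the authors' deposited tests, since pooled values allow no exact test, and which error is right cannot be settled without values of single samples.

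The control groups themselves differed, and here the values are set side by side without a test, since each table was made separately. The HCC1954 control siRNA group was above the SKBR3 one for 7 of the 9 genes, with DGCR8 at 2.25 times, XPO5 at 2.01 times and AGO3 at 1.80 times the SKBR3 level. TARBP2 and AGO1 were lower in HCC1954, at 0.910 and 0.817 times. The median log2 ratio of the 9 was 0.69, beside 0.06 over 11038 genes. Within HCC1954, the control shRNA clones against control siRNA cells gave a median of -0.22, beside 0.04 over 11679 genes. DROSHA was at 0.638 times, TARBP2 at 0.703 times and DICER1 at 0.773 times the siRNA level there, with XPO5 at 1.11 times and TNRC6A at 1.15 times. Those clones and cells differ in the silencing RNA, its delivery and the table, which cannot be told apart.

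For all of the 9 genes but DGCR8 and TNRC6A, the ratio of summed levels with shRNA had the sign of the median over neighbouring genes. In SKBR3 all but AGO2, AGO3 and TNRC6A had the sign of their neighbours, and with siRNA in HCC1954 only AGO2, DGCR8 and TARBP2 did. AGO1 and AGO3 lie side by side, so most of their neighbours are the same. With shRNA, up to 20 tested genes on each side were taken, 40 in all except for AGO1 and DGCR8 with 39. Over all genes tested with shRNA 36.3% rose and 39.2% fell. The median log2 ratio was -0.62 around DICER1, where 26 fell and 5 rose, and -0.36 around XPO5, where 24 fell and 6 rose. It was -0.47 around DROSHA and 0.37 around AGO2, where 20 rose and 12 fell. TNRC6A went against its neighbours, whose median was 0.48, with 24 rising and 2 falling. Around TARBP2 the median was 0.39, with 19 rising and 16 falling. Around AGO1, AGO3 and DGCR8 the medians were 0.16, 0.18 and -0.05. The neighbours of AGO2 had a median of 0.13 with siRNA in HCC1954, with 3 rising and 1 falling. The part of a shared neighbourhood in these values was not tested.

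Other genes of the pathway were taken from lists, given here as counts with no test. Levels of these genes are FPKM of the standing accession, on which the calls rest, and not sums over accessions. Among 7 close relatives and transport partners, AGO4 and IPO8, an importin tied to Argonaute, fell in SKBR3 (AGO4 from 3.72 to 2.70 FPKM and IPO8 from 10.2 to 5.73 FPKM), 2 of 5 tested. Over all genes 21.0% fell in SKBR3. Summed over accessions, IPO8 was at 12.4 and 9.35 FPKM there. With shRNA 3 of 5 rose and 1 fell, beside 36.3% and 39.2% of all genes. TNRC6B, a paralog of TNRC6A, rose from 1.96 to 6.04 FPKM, RAN, the GTPase that powers export, from 59.1 to 165 FPKM, and IPO8 from 7.17 to 14.4 FPKM. The summed level of RAN was 97.1 and 211 FPKM. XPO1, a general exportin, fell from 102 to 88.7 FPKM. None of 5 was called with siRNA in HCC1954, where 3.28% of all genes were called.

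Of 16 tested genes of proteins that assist the Microprocessor, 4 fell and 0 rose in SKBR3, where 21.0% of all genes fell. The falls included NCBP1 of the cap-binding complex, from 8.70 to 5.27 FPKM, and the splicing factor gene SRSF3, from 68.9 to 48.1 FPKM. With shRNA 9 rose and 2 fell, where 36.3% of all genes rose, and HNRNPA1, which binds certain primary miRNAs, rose from 129 to 263 FPKM, having fallen from 227 to 177 FPKM in SKBR3. KHSRP rose from 28.6 to 55.0 FPKM and ERH, a small subunit of the Microprocessor, from 164 to 242 FPKM. None was called in HCC1954 siRNA cells (0 of 16), where 3.28% of all genes were called.

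Of 23 tested genes that load or assist the silencing complex, 17 rose and 5 fell with shRNA, beside 36.3% and 39.2% of all genes. The rises included the chaperone genes HSP90AB1 from 666 to 1557 FPKM and HSP90AA1 from 918 to 2026 FPKM and the co-chaperone CDC37 from 52.9 to 104 FPKM. FMR1, an RNA-binding protein gene, fell from 26.9 to 13.2 FPKM. In SKBR3 6 fell and 0 rose, beside 21.0% and 12.3% of all genes, among them the LIM protein gene LIMD1 from 24.1 to 15.3 FPKM and GEMIN4 from 27.7 to 19.3 FPKM. FKBP5, a chaperone partner, fell from 8.16 to 5.54 FPKM in SKBR3. It was the single one of 23 called with siRNA in HCC1954, beside 3.28% of all genes, and rose there from 6.68 to 10.2 FPKM. The median log2 ratio of this list was -0.08, 0.00 and 0.34 in SKBR3, HCC1954 siRNA and shRNA.

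The deadenylation and decapping enzymes that act after TNRC6A were split. In SKBR3, 3 of 23 rose and 2 fell, beside 12.3% and 21.0% of all genes. The decapping cofactor DCP1A rose from 3.02 to 6.17 FPKM and EDC3 fell from 11.3 to 5.19 FPKM. With shRNA 8 of 22 rose and 6 fell, beside 36.3% and 39.2% of all genes. CNOT7, a deadenylase, rose from 15.8 to 34.5 FPKM and the helicase gene DDX6 from 34.6 to 66.2 FPKM. PATL1, a decapping activator, fell from 47.3 to 17.0 FPKM. HCC1954 siRNA cells had 0 of 22 called, where 3.28% of all genes were called. Of the tailing and decay enzymes tested, 1 of 6 fell in SKBR3, PNPT1 from 5.66 to 3.76 FPKM. With shRNA 2 of 3 rose and 1 fell, led by the exonuclease gene XRN2 from 18.2 to 44.4 FPKM. The PIWI pathway, which is active mainly in the germ line, had 2 or 3 tested genes per table, and those 2 tested with shRNA, HENMT1 and TDRD1, fell. In the HCC1954 siRNA cells 0 of 9 tailing and decay genes and 0 of 3 PIWI pathway genes were called.

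Sensors of double-stranded RNA form another arm of the response to such RNA, and are given beside the 9 genes. With shRNA 7 of 8 tested fell and 0 rose, with IFIH1, the sensor MDA5, from 14.6 to 2.35 FPKM, OAS3 from 57.8 to 20.7 FPKM and the adaptor gene MAVS from 38.5 to 20.3 FPKM. The summed level of MAVS was 47.0 and 35.4 FPKM. The median log2 ratio of the 8 was -0.72, and 39.2% of all genes fell. In SKBR3, 1 of 8 rose, DHX58 from 3.17 to 6.87 FPKM, and 2 fell, OAS3 from 8.64 to 5.24 FPKM and IFIH1 from 10.7 to 8.35 FPKM. Over all genes 12.3% rose and 21.0% fell in SKBR3. The HCC1954 siRNA comparison had 0 of 12 called, where 3.28% of all genes were called.

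**Figure D4:**
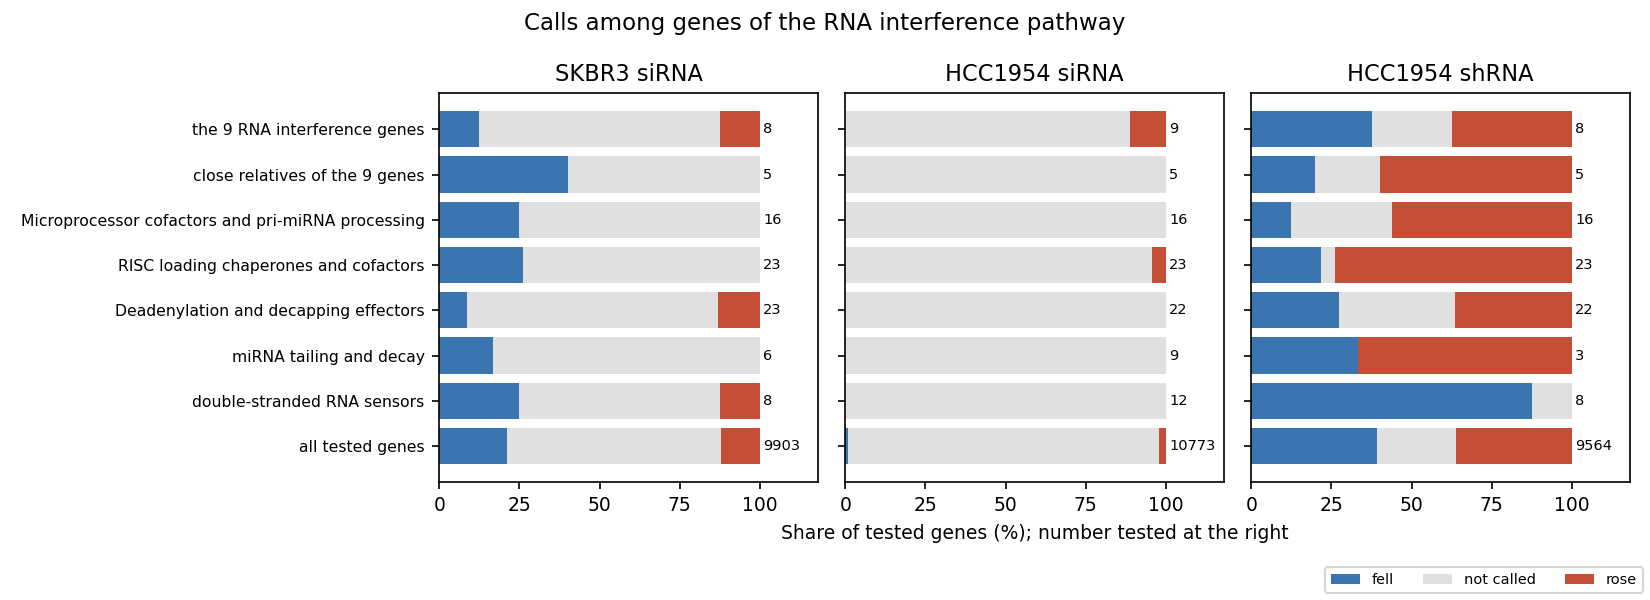
Share of tested genes that fell (blue), were not called (grey) or rose (red) in each list and over all tested genes, with the number tested at the right of each bar. With shRNA 17 of 23 loading and chaperone genes rose and 7 of 8 sensors fell, and with siRNA in HCC1954 almost no gene of any list was called.

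Levels of AGO2 and DICER1 over the 6 groups were compared with those of 10206 genes at 1 FPKM or more throughout. The closest to AGO2 were HSF2, TMEM242 and SLCO4A1, with Pearson r = 0.988, 0.984 and 0.982, and the closest to DICER1 were SLC44A3, OCRL and CAPZB, with r = 0.994, 0.994 and 0.984. The 6 points share 3 separately made tables and 2 lines, and the highest of many correlations over 6 points is a description only.

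AP-2 proteins bind a palindrome written GCCNNNGGC, which reads the same on both strands, and the 250 bases before RefSeq start sites were searched for it. It was found for AGO1, AGO3 and TNRC6A, 3 of the 8 genes with an entry, and in 3 of their 14 windows. AGO2 was the gene without an entry. Over all windows of that length 19.8% of 35116 held it, and 23.0% of 27305 genes held it in some window. The 8 genes were thus near the share over all genes. The windows of AGO1 and TNRC6A are printed, with the match in capitals, together with that of XPO5, which fell in both SKBR3 and shRNA comparisons and holds no match in this window. They are given 5′ to 3′ on the strand of the gene, from RefSeq (GRCh38.p14), at chr1:35882959-35883208 (plus strand), chr16:24729401-24729650 (plus strand) and chr6:43576039-43576288 (minus strand).
AGO1: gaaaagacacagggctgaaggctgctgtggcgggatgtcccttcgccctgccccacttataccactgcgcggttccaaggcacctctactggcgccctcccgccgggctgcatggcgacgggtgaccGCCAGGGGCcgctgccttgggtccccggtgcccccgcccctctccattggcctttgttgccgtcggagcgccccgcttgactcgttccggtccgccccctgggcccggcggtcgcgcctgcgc
TNRC6A: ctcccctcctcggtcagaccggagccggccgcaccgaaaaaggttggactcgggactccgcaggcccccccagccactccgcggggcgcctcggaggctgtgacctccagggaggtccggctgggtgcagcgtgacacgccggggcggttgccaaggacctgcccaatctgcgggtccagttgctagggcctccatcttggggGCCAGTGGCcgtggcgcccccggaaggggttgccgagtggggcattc
XPO5: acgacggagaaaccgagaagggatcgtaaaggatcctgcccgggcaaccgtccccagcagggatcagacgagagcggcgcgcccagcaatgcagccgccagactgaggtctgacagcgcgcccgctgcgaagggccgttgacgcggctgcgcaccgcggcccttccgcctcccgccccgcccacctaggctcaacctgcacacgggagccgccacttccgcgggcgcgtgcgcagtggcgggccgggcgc
The match begins 123 bases before the start in AGO1, 47 in TNRC6A and 9 in AGO3. These starts are not the outermost of the annotated genes. On GRCh37 the window of AGO1 lies at 36348560 to 36348809 and that of TNRC6A at 24740722 to 24740971, both within the gene. The window of AGO3 overlaps an untranslated exon of the gene, and that of XPO5 lies outside its gene. A match is a run of letters, not a measured binding site, and AP-2gamma binding was not measured in these files.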

How the data were processed

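Per the labels, RNA of 24 samples in 8 groups was sequenced from TruSeq libraries, and the lines were not authenticated by the submitters. The submitters' processing notes name Bowtie 0.12.2, hg19, GRCh37 and Cuffdiff, the last with no version. Per the file headers, the FPKM values are the authors' own, pooled to 1 value per group and accession. The deposited test statistic is a score of their comparison tool. Each accession also has a deposited p-value and q-value. Single samples have no column, which leaves depth, replicate spread and pairing unknown and allows no interval on an FPKM. In 1 table the columns name only the siRNA, and its line, HCC1954, was read from the deposited file's name.

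Of 66321 RefSeq accessions, 65468 matched a symbol in NCBI RefSeq (GRCh38.p14, used for names) and 853 did not. FPKM was summed per symbol. A sum has no deposited test, so calls use the standing accession at q under 0.05. Recomputing Benjamini-Hochberg over tested accessions changed 0 calls. Log2 ratios use no pseudocount. Differences between comparisons were tested by z, two-sided, with standard errors equal to log2 ratio over statistic. In the median over genes above the smallest p, the statistic would have to be 2.01 (SKBR3 siRNA), 2.48 (HCC1954 siRNA) and 3.39 (shRNA) times larger to give the deposited p under a normal curve. The 3 comparisons share no samples. The z test was tested on simulated data with noise drawn from the same standard errors and planted differences larger than those of the 9 genes. Such a simulation cannot show whether the standard errors are right or whether smaller differences would be found. Coordinates are GENCODE genes on GRCh37, and promoter and miRNA sequences are from RefSeq (GRCh38.p14), which held promoters for 8 of the 9 genes.

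The text names the 9 genes, TFAP2C, up to 4 called genes per list and comparison with the largest log2 ratio and at least 1 FPKM in both groups, and 3 genes each most like AGO2 and DICER1. One gene that this rule names is not reported here. KRT7, POLR1C, HENMT1, TDRD1 and, in SKBR3, CDH1 were named after their values were seen. The 9 genes and the lists were chosen with earlier results of these data known. Alternatives were a q of 0.01, a Simes combination of accessions, the standing accession alone, protein-coding accessions alone, a pseudocount of 1, centring on the median of all genes and standard errors from p. Immune and fibroblast markers had 1 and 0 tested genes per table, with 0 called. Python 3.11.15, pandas 2.3.3, NumPy 2.4.6 and SciPy 1.17.1 were used.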

Additional observations from a re-analysis of the deposited data

How the results depend on the processing

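No paired analysis was possible because the tables hold 1 pooled value per group, and for the same reason leaving out replicates was not run. At a q of 0.01 in the authors' deposited tables, 1 of the 9 genes stayed called in SKBR3 (XPO5, from 2) and 0 with siRNA in HCC1954 (from AGO2 alone, with 1 gene at an unadjusted p under 0.05), against 4 with shRNA (from 6). Combining accessions by Simes gave 7 with shRNA. On the standing accession alone, the median log2 ratio of the 9 was -0.24 in SKBR3, in place of -0.07, and 0.083 with siRNA in HCC1954, in place of -0.02, and the sign turned for DGCR8 in SKBR3 and for DICER1 and TARBP2 with siRNA in HCC1954. Standard errors from the deposited p raised the genes that differed from 0 to 1 between siRNA and shRNA in HCC1954 and from 0 to 3 between SKBR3 and shRNA. Centring on the median of all genes turned the sign of AGO1 and DGCR8 in SKBR3, both close to 0, and gave a median of 0.01 there. A pseudocount of 1 moved AGO2 with shRNA to 1.21. The cause of these shifts was not tested. AGO3, near 1 to 3 FPKM, had a completed test in 1 table only, and depth per sample is unknown.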
